A study of Mus musculus with 3 samples.

Results

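The 9 genes described here encode transcription factors that steer blood progenitors into the myeloid lineages: the C/EBP family members Cebpa, Cebpb, Cebpd, Cebpe and Cebpg, the ETS factor Spi1 (PU.1), the zinc-finger repressor Gfi1, the interferon regulatory factor Irf8 and the Krüppel-like factor Klf4. They were taken by symbol from the 32285 gene rows of each library, where each of the 9 has 1 row. The data are unique molecular identifier (UMI) counts from CITE-seq, which reads the messenger RNA 3′ ends and antibody tags (10 tags here) of single cells together. The cells were lineage-negative, KIT-positive progenitors sorted from mouse liver at postnatal day 0. There were 3 libraries, 1 per group: Control, MLL-ENL (carrying the MLL::ENL leukaemia fusion), and MLL-ENL Skida1-deleted, which carries the fusion and lacks Skida1. The labels give neither what drives the fusion or the deletion nor how many animals went into a library.

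As background, C/EBP proteins bind DNA as dimers through a basic region and leucine zipper. CEBPA, together with PU.1, opens the myeloid programme in progenitors, and CEBPE acts later, when neutrophil secondary granule genes are switched on. CEBPB and CEBPD are induced by cytokines and inflammation, while CEBPG lacks a classical activation domain and is widely expressed as a dimer partner. GFI1 represses monocyte genes in favour of neutrophils, whereas IRF8 and KLF4 act on the monocyte and dendritic side.

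In the GRCm38 assembly, the build that the submitters' processing notes call mm10, Cebpa lies at chr7:35119293-35121928 and Cebpg beside it at chr7:35046422-35056566. Cebpb lies at chr2:167688915-167690432, Cebpd at chr16:15887286-15889545 and Cebpe at chr14:54710363-54712174. Spi1 lies at chr2:91082374-91115759, Gfi1 at chr5:107716655-107725805, Irf8 at chr8:120736358-120756694 and Klf4 at chr4:55527137-55532475.

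RefSeq promoters (GRCm38.p6) were matched for 6 of the 9 genes, with 8 entries among 32851 in the table. Each promoter of 250 bases before to 50 bases after a start was searched on both strands for a C/EBP motif (TTGCNNAA), a PU.1 motif (GAGGAAGT) and the GFI1 motif, 3 patterns that do not contain one another. The C/EBP letters occurred in 10.8% of all promoters, the PU.1 letters in 3.20% and the GFI1 letters in 3.05%. Among the 8 entries, the C/EBP letters occurred in 1, from Gfi1, the GFI1 letters in 1, from Irf8, and the PU.1 letters in 0. Those promoters belong to the pair of genes that are compared cell by cell further on, so the 250 bases before each start are shown 5′ to 3′ in gene orientation, with the motif letters in capitals. The Gfi1 stretch is chr5:107725806-107726055 on the minus strand, the first motif base standing 143 bases before the start. The Irf8 stretch is chr8:120736108-120736357 on the plus strand, where the GFI1 letters are read on the opposite strand and begin 128 bases before the start.
Gfi1: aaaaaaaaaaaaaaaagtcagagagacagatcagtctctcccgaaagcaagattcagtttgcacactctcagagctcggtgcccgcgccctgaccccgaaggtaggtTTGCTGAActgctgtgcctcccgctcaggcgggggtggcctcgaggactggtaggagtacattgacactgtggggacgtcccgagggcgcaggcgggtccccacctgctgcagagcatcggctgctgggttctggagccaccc
Irf8: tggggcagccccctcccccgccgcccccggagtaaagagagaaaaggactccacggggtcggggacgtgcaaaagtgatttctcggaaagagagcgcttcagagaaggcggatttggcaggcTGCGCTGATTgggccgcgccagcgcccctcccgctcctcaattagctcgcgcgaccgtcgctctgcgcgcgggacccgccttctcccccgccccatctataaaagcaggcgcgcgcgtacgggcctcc
These are matches of letters, and binding was not measured.

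After filtering, 5386 Control, 10764 MLL-ENL and 9380 Skida1-deleted cells were kept, with median depths of 28013, 13968 and 17271 UMIs per cell. Skida1 itself stood at 0.952, 17.2 and 1.82 CPM (UMIs of a gene scaled to a common total of gene UMIs per class and library) in the HSPC-like cells of Control, MLL-ENL and Skida1-deleted. The sort marker Kit stood at 186, 199 and 228 CPM over all kept cells. The Y-linked gene Ddx3y was at 0 CPM in Control and MLL-ENL and at 57.2 CPM in the Skida1-deleted library, so sex and the deletion cannot be told apart. The libraries shared 17 to 33 barcodes in pairs. Cells were clustered and the clusters named from lineage markers, none of which is among the 9 genes. Clusters left unnamed entered no class. They held 4 Control, 1513 MLL-ENL and 1504 Skida1-deleted cells, or 0.0743%, 14.1% and 16.0% of those kept. The classes compared, with 100 or more cells in each library, were HSPC-like (haematopoietic stem and progenitor), granulocyte progenitor-like, basophil-mast-like, megakaryocyte-like and erythroid-like. The granulocyte progenitor-like class held 405, 501 and 478 cells and the HSPC-like class 1145, 1658 and 2211 cells, in the order Control, MLL-ENL, Skida1-deleted, which is kept throughout. With 1 library per group no test between groups was possible. The 95% intervals given (exact Poisson for CPM, exact binomial for folds and shares) cover counting error only.

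The plot of CPM by class shows where each gene was detected. Cebpa was high in the granulocyte progenitor-like cells (64.1, 33.2 and 32.6 CPM) and in the basophil-mast-like cells (100.6, 30.9 and 18.1 CPM). In Control the basophil-mast-like level was the higher of these, with intervals that did not overlap. In MLL-ENL the intervals overlapped, and in the Skida1-deleted library the granulocyte progenitor-like level was above the basophil-mast-like level.

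**Figure D1:**
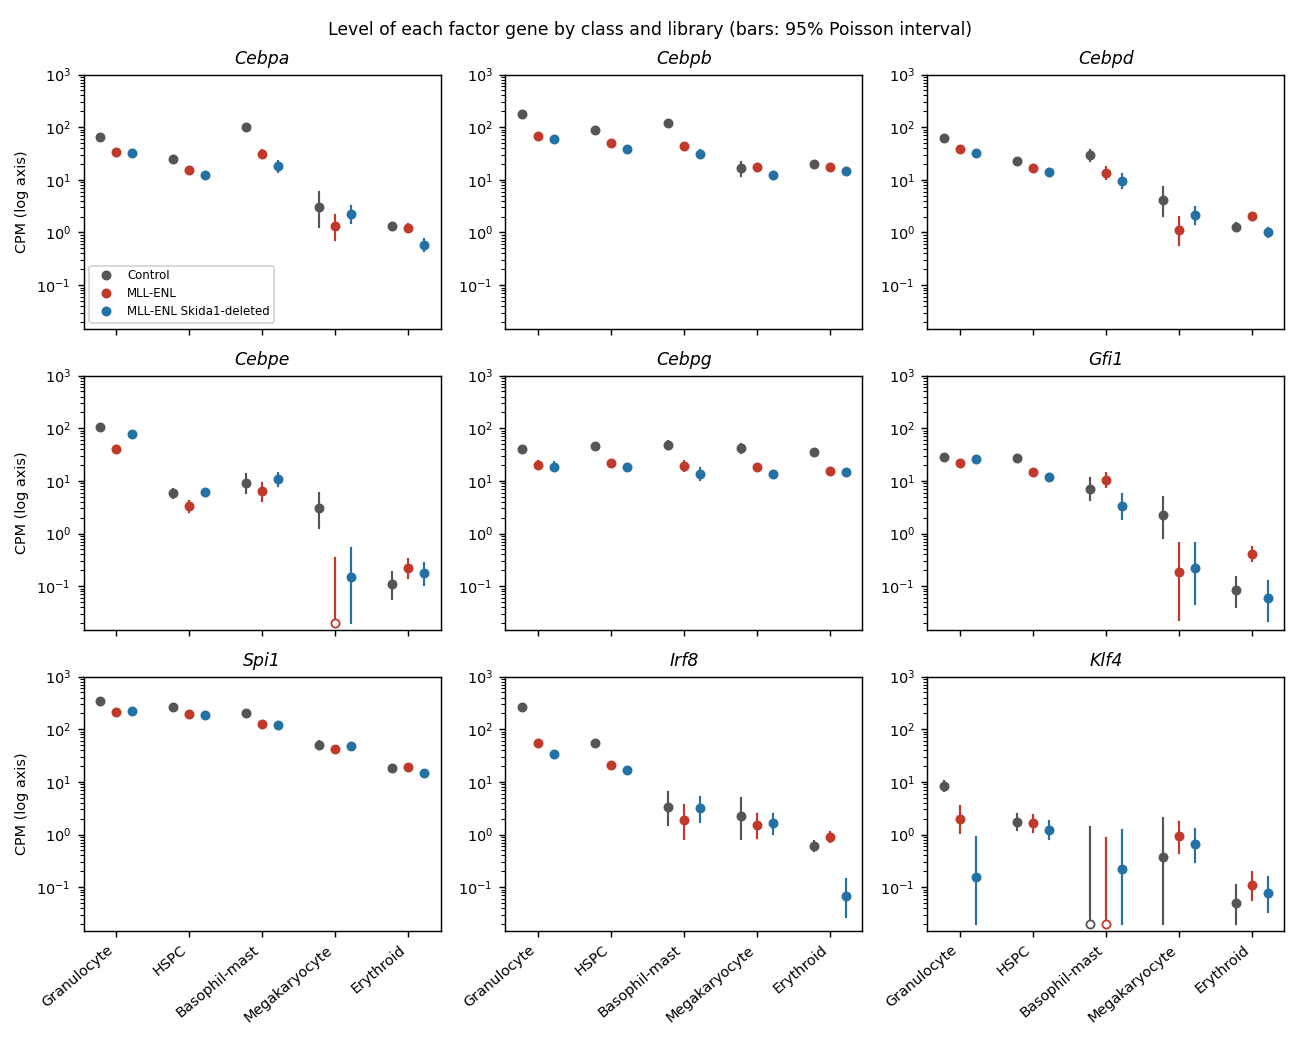
Levels of the 9 genes (CPM, log axis) in the 5 compared classes, with 1 point per library and exact Poisson 95% intervals; hollow points at the bottom mark 0 UMIs. Irf8 in granulocyte progenitor-like cells is at 268 CPM in Control, 55.5 in MLL-ENL and 33.2 in Skida1-deleted, while Cebpe runs 107, 40.5 and 79.1.

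Cebpe was the most restricted C/EBP gene. It was highest in the few eosinophil-like cells, 20, 22 and 31 per library, at 673, 383 and 341 CPM. The granulocyte progenitor-like cells came second at 107, 40.5 and 79.1 CPM, and the basophil-mast-like cells followed at 9.01, 6.36 and 10.7 CPM. In erythroid-like cells it was at most 0.221 CPM in the 3 libraries.

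Cebpg was the most even C/EBP gene. In Control it measured 40.8 CPM in granulocyte progenitor-like, 45.7 in HSPC-like, 47.7 in basophil-mast-like, 41.9 in megakaryocyte-like and 34.6 in erythroid-like cells. Cebpb measured 176, 67.5 and 60.2 CPM in granulocyte progenitor-like cells and 86.8, 49.1 and 38.0 CPM in HSPC-like cells. Cebpd measured 62.0, 39.2 and 32.4 CPM in granulocyte progenitor-like cells and 23.0, 16.9 and 14.1 CPM in HSPC-like cells.

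Spi1 was detected in the progenitor classes broadly, at 347, 215 and 222 CPM in granulocyte progenitor-like and 268, 191 and 187 CPM in HSPC-like cells. Gfi1 measured 28.2, 21.5 and 25.8 CPM in granulocyte progenitor-like cells and 27.5, 14.5 and 12.1 CPM in HSPC-like cells. In Control the Gfi1 intervals of those classes overlapped.

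Irf8 and Klf4 were highest in the 29 Control cells of a monocyte-dendritic progenitor-like cluster, at 2193 CPM (95% interval 2042 to 2352) and 50.5 CPM (29.9 to 79.8). Cebpe and Gfi1 had 0 UMIs in those 29 cells, which at the limit of 3 counts allows up to 8.41 CPM for each. The same cluster held 2 MLL-ENL cells and 1 Skida1-deleted cell. Irf8 was also present in B-lineage-like cells, at 63.5, 51.3 and 49.1 CPM with overlapping intervals.

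The first comparison asks what the fusion goes with. In granulocyte progenitor-like cells 8 of the 9 genes were at least 1.5-fold lower in MLL-ENL and 0 were higher. Over all 9365 genes measured in that class (5 CPM or more in either library and 20 UMIs or more over both), 19.4% were at least 1.5-fold lower and 8.78% higher. The median log2 ratio of the 9 genes was -1.0, and that of all measured genes was -0.17.

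Irf8 differed most: 268 CPM (258 to 278) in Control and 55.5 CPM (49.96 to 61.6) in MLL-ENL, which is 4.82-fold lower (4.32 to 5.39). Klf4 was 4.20-fold lower (2.34 to 8.20), from 89 UMIs in Control and 13 in MLL-ENL. Among the C/EBP genes, Cebpe was 2.65-fold lower (2.32 to 3.05) and Cebpb 2.61-fold lower (2.35 to 2.90). Cebpg was 2.06-fold, Cebpa 1.93-fold and Cebpd 1.58-fold lower, and Spi1 was 1.61-fold lower. Gfi1 was the exception at 1.31-fold lower (1.07 to 1.61), and it passed 1.5-fold in 6 of 15 alternative processings. Klf4 was not lower in 4 of the 15: with strict cell filtering, finer clustering, cell cycle and fusion genes left out of clustering, or classes from a marker score.

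The class did not hold the same mixture in each library. Its monocyte-dendritic markers summed to 1787, 1137 and 916 CPM, with 15, 14 and 11 of the 15 detected. Cd209a was at 0 in MLL-ENL, and Siglech, Cd209a, H2-Aa and Cd74 were at 0 in the Skida1-deleted library. Its granulocyte markers summed to 14657, 10610 and 14585 CPM. At a finer clustering (resolution 2), shown in detail after the results were seen, Control had 223 monocyte-dendritic progenitor-like and 186 granulocyte progenitor-like cells. The fusion libraries then had 22 and 5 monocyte-dendritic progenitor-like cells beside 554 and 638 granulocyte progenitor-like cells. The 223 Control cells held 3454 Irf8 UMIs and the whole broader granulocyte progenitor-like class 2833. The 223 thus did not all come from that class, and how many did was not counted.

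Within the finer granulocyte progenitor-like class, Irf8 measured 74.0, 46.0 and 33.4 CPM, so the libraries stood closer together than in the broader class. Klf4 was at 0 UMIs in the Control cells there. The monocyte-dendritic progenitor-like Control cells of this clustering had 109 Klf4 UMIs, beside 89 in the broader granulocyte progenitor-like class. The C/EBP genes kept the order of the libraries. Cebpe measured 219, 36.0 and 66.6 CPM and Cebpa 76.7, 33.5 and 29.4 CPM. Gfi1 measured 47.3, 22.4 and 23.7 CPM there, a larger difference than in the broader class. However, the finer class had fewer cells than the broader class only in Control (186 against 405). In the fusion libraries it had more (554 against 501 and 638 against 478), so the classes do not hold matching cells.

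In HSPC-like cells 6 of the 8 measured genes were at least 1.5-fold lower in MLL-ENL than in Control and 0 were higher. Of all measured genes 15.3% were lower and 7.99% higher, and the median log2 ratio was -0.74 for the 8 and -0.11 for all. Irf8 was 2.55-fold lower (54.2 to 21.3 CPM), Cebpg 2.09-fold lower (45.7 to 21.8 CPM) and Gfi1 1.90-fold lower (27.5 to 14.5 CPM). Cebpb was 1.77-fold, Cebpe 1.76-fold and Cebpa 1.61-fold lower. Spi1, at 1.41-fold, and Cebpd, at 1.36-fold, did not reach 1.5-fold. Klf4, at 1.74 and 1.62 CPM, was below the level required. Over 14 alternative processings 3 to 8 genes were lower: Cebpa passed 1.5-fold in 10 of 14 and Gfi1 in 12 of 14. With doublets called at the expected rate the Gfi1 log2 ratio was 0.0032.

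Those HSPC-like cells lay in different clusters: Control in clusters 5 and 11 (439 and 686 cells), the fusion libraries in clusters 8 (1187 and 1523 cells) and 24 (417 and 670 cells). Irf8 measured 55.7 and 53.0 CPM in Control clusters 5 and 11. It measured 15.3 and 22.5 CPM in MLL-ENL clusters 8 and 24. Cebpe measured 7.46 and 1.93 CPM in Control clusters 5 and 11, and 0.468 and 7.41 CPM in MLL-ENL clusters 8 and 24. Its levels in Control cluster 5 and MLL-ENL cluster 24 were thus near each other. Cluster 11 also held 52 MLL-ENL and 18 Skida1-deleted cells, where Irf8 measured 107.4 CPM (82.1 to 137.9) and 103.5 CPM (60.3 to 165.8), against 48.3 to 58.0 CPM in Control. Within that shared cluster the Irf8 difference thus ran the opposite way. Other genes stayed lower in its MLL-ENL cells than in its Control cells. In Control and MLL-ENL, Cebpg measured 48.7 and 15.8 CPM, Gfi1 28.1 and 7.04 CPM and Cebpa 21.7 and 1.76 CPM. Cebpd measured 29.2 and 0 CPM, Cebpb 96.0 and 65.1 CPM and Spi1 292 and 162 CPM. The MLL-ENL values of Cebpg, Gfi1, Cebpa and Cebpd came from 9, 4, 1 and 0 UMIs. The Cebpb intervals overlapped (89.6 to 102.7 and 45.9 to 89.8 CPM). In the 18 Skida1-deleted cells, Cebpg, Gfi1 and Cebpa measured 12.2, 24.4 and 0 CPM, and Cebpd, Cebpb and Spi1 12.2, 42.6 and 189 CPM. The part of these cluster identities in the HSPC-like differences was not tested.

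**Figure D2:**
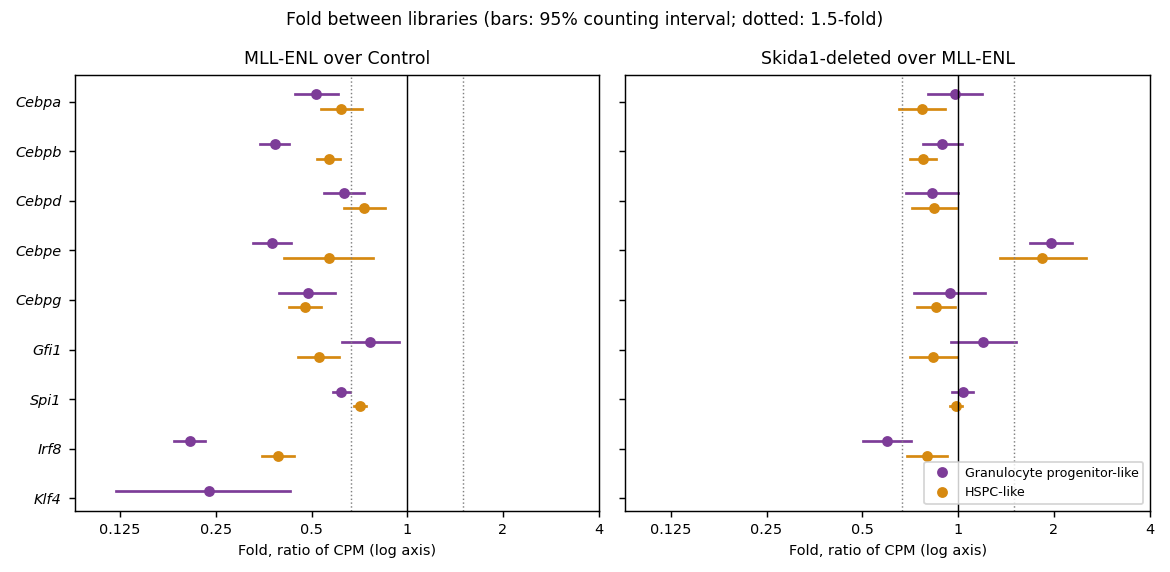
Fold of each gene on a log axis, MLL-ENL over Control and Skida1-deleted over MLL-ENL, in granulocyte progenitor-like and HSPC-like cells, with exact 95% intervals for counting error. All MLL-ENL over Control points lie below 1, with Irf8 in granulocyte progenitor-like cells at 0.208, while Cebpe lies above 1 for Skida1-deleted over MLL-ENL in each class.

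Cebpg differed in the other 3 compared classes as well. It was 2.47-fold lower in basophil-mast-like (47.7 to 19.3 CPM), 2.33-fold lower in megakaryocyte-like (41.9 to 18.0 CPM) and 2.26-fold lower in erythroid-like cells (34.6 to 15.3 CPM). In the megakaryocyte-like and erythroid-like cells it was 1 of 3 measured members past 1.5-fold, with 22.3% and 13.3% of all measured genes lower and 8.45% and 5.58% higher. There Cebpb measured 16.5 and 17.2 CPM in megakaryocyte-like and 19.8 and 17.6 CPM in erythroid-like cells of Control and MLL-ENL. Spi1 measured 49.4 and 41.7 CPM and 18.6 and 19.6 CPM in the same classes.

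In basophil-mast-like cells 5 of 7 measured genes were lower and 0 were higher, with 18.3% of all measured genes lower and 8.84% higher. Cebpa was 3.26-fold lower (2.64 to 4.05), from 100.6 to 30.9 CPM, and Cebpb 2.71-fold lower. Cebpg (above), Cebpd at 2.14-fold and Spi1 at 1.63-fold completed the 5. Gfi1, from 19 and 45 UMIs, and Cebpe, from 24 and 27 UMIs, had folds of 1.49 and 0.706 with intervals that include 1. This class also differed in its markers between libraries. Its basophil-mast markers summed to 7290, 3862 and 2860 CPM and the granulocyte markers in it to 4053, 2337 and 2522 CPM. The part of this in the differences was not tested.

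The second comparison asks what the loss of Skida1 goes with among fusion-carrying cells, and fewer of the 9 genes passed 1.5-fold here. In granulocyte progenitor-like cells 1 of 8 measured genes, Cebpe, was higher (3% of all measured genes were) and 1, Irf8, was lower (4.11% were). Cebpe measured 40.5 CPM (35.7 to 45.7) in MLL-ENL and 79.1 CPM (72.3 to 86.4) in the Skida1-deleted library, a fold of 1.96 (1.68 to 2.28). Control stood above both at 107 CPM (101 to 114). Irf8 was 1.67-fold lower (1.41 to 1.99), from 55.5 to 33.2 CPM. The Cebpe ratio passed 1.5-fold in 15 of 15 alternative processings and the Irf8 ratio in 9 of 15. The alternative with no filter on low counts is among them and cannot change a ratio. With each library clustered on its own, Irf8 was instead higher in the Skida1-deleted library (log2 ratio 1.55).

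The other 6 measured genes had folds near 1. They were 0.980 for Cebpa, 0.891 for Cebpb, 0.826 for Cebpd, 0.941 for Cebpg, 1.2 for Gfi1 and 1.03 for Spi1. The interval of Cebpd (0.683 to 0.997) excluded 1 and the other 5 did not. Klf4 had 13 UMIs in MLL-ENL and 1 UMI in the Skida1-deleted library, under the count required.

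The Cebpe difference was present in each granulocyte progenitor-like cluster that the libraries share. In cluster 3 (389, 373 and 460 cells), led by Elane, Ctsg and Prtn3, Cebpe measured 93.2, 39.0 and 68.8 CPM. In cluster 21 (16, 66 and 18 cells), led by S100a9 and S100a8, it measured 577, 92.5 and 325 CPM. The median depth of those cells was 19735, 3101.5 and 13084 UMIs, so the MLL-ENL cells there were the shallowest. Irf8 and Klf4 were at 0 UMIs in cluster 21 in all 3 libraries. A low-depth cluster 26 held 62 MLL-ENL cells and no others, with Cebpe at 17.7 CPM.

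In HSPC-like cells Cebpe was again the 1 gene of 8 that was higher (1.75% of all measured genes were), with 3.30 CPM in MLL-ENL and 6.05 CPM in the Skida1-deleted library, a fold of 1.83 (1.35 to 2.51). None of the 8 was at least 1.5-fold lower (1.35% were). Cebpa, Cebpb, Irf8, Gfi1, Cebpd and Cebpg had folds between 0.770 and 0.854 with intervals below 1, and Spi1 had a fold of 0.983 (0.940 to 1.03). Over the 14 alternatives the Irf8 log2 ratio was above 0 in 3 (up to 0.30), and those of Cebpa, Gfi1 and Cebpd were above 0 in 1 each (Cebpa up to 0.67). Cebpe no longer counted as a measured gene past 1.5-fold in 8 of 14 alternative processings, though its ratio stayed above 1 in all 14. In cluster 24 Cebpe measured 7.41 and 11.4 CPM, and in cluster 8 it measured 0.468 and 1.2 CPM.

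In basophil-mast-like cells Cebpe, from 27 to 48 UMIs, had a fold of 1.68 (1.03 to 2.81), and 4.07% of all measured genes were higher. It passed 1.5-fold in 6 of 13 alternatives, and its log2 ratio was below 0 in 2 (down to -0.35). Eosinophil markers in this class summed to 6.38, 5.89 and 53.8 CPM in Control, MLL-ENL and Skida1-deleted. The part of eosinophil-type cells in the Cebpe value was not tested. Gfi1, from 45 to 15 UMIs, was 3.17-fold lower (1.73 to 6.12), and Cebpa was 1.71-fold lower (1.28 to 2.28), with 5.14% of all measured genes lower. In megakaryocyte-like and erythroid-like cells 0 of 3 measured members differed by 1.5-fold, and 2.10% and 0.913% of all measured genes were higher and 1.64% and 1.59% lower.

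The makeup of the C/EBP family differed between the libraries as well. UMIs of 3′-end libraries count molecules and not transcript length, so length does not enter the shares of the 5 genes. Capture may still differ by gene and was not measured, so the shares are compared between libraries. In granulocyte progenitor-like cells the 5 genes summed to 450.5, 200.3 and 222.9 CPM. Cebpe made up 23.8%, 20.2% and 35.5% of those UMIs. At resolution 2 only the Control class had fewer cells. Control had 223 monocyte-dendritic progenitor-like cells there, not all of them from the broader class. In the finer granulocyte progenitor-like class Cebpe made up 36.9% (35.1% to 38.6%), 19.1% (17.2% to 21.1%) and 33.5% (31.4% to 35.7%), so the order of Control and the Skida1-deleted library was not kept, while MLL-ENL was the lowest at each clustering. Cebpb made up 39.1%, 33.7% and 27.0%, and Cebpa 14.2%, 16.6% and 14.6%. In HSPC-like cells the sum was 186.6, 106.7 and 88.9 CPM, and Cebpe made up 3.12%, 3.09% and 6.80%. In basophil-mast-like cells Cebpa made up 33.1%, 27.2% and 21.9%, and Cebpe 2.96%, 5.60% and 12.97%. The eosinophil markers of that class, given above, were highest in the Skida1-deleted library, and their part in these shares was not tested. In megakaryocyte-like cells Cebpg made up 61.2%, 47.8% and 44.6%.

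**Figure D3:**
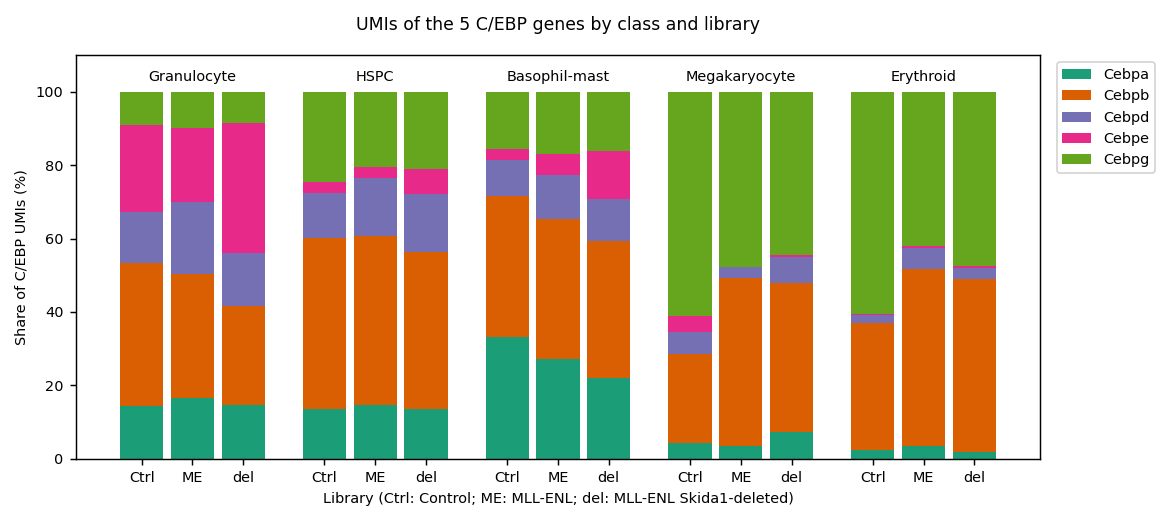
Share of C/EBP family UMIs (percent) contributed by each of the 5 genes, stacked per class and library (Ctrl is Control, ME is MLL-ENL, del is MLL-ENL Skida1-deleted). The Cebpe share in granulocyte progenitor-like cells is 23.8%, 20.2% and 35.5%, and Cebpg makes up most C/EBP UMIs of Control megakaryocyte-like cells.

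To set aside depth, each cell was thinned to 3000 UMIs and the share of cells with a UMI was counted, leaving out 0, 41 and 9 shallower granulocyte progenitor-like cells and 10, 2 and 20 HSPC-like cells. Irf8 was detected in 37.8%, 10.4% and 8.32% of granulocyte progenitor-like cells (72.1%, 28.1% and 23.2% unthinned, at median depths of 24883, 14289 and 12832 UMIs). Cells of a type not expected to hold it, the erythroid-like ones, gave 0.147%, 0.795% and 0.0302% at the same thinned depth (median depths before thinning 34594, 9079 and 29093 UMIs). Cebpe was detected in 24.7%, 11.1% and 16.0% of granulocyte progenitor-like cells, against 0.0295%, 0.199% and 0.0603% of erythroid-like cells. Unthinned the Cebpe shares were 51.6%, 23.8% and 39.3%.

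Cebpb was detected in 40.5%, 15.2% and 15.8%, Spi1 in 64.4%, 42.4% and 47.3%, and Cebpa in 18.0%, 8.91% and 10.0% of granulocyte progenitor-like cells. Gfi1 was detected in 8.15%, 6.74% and 9.17%, with overlapping intervals. Klf4 was detected in 1.48%, 0.652% and 0 of 469 cells, the last of which allows up to 0.640% at the limit of 3 counts. In HSPC-like cells Irf8 was detected in 10.7%, 5.37% and 4.29% and Gfi1 in 9.16%, 4.71% and 3.70%.

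**Figure D4:**
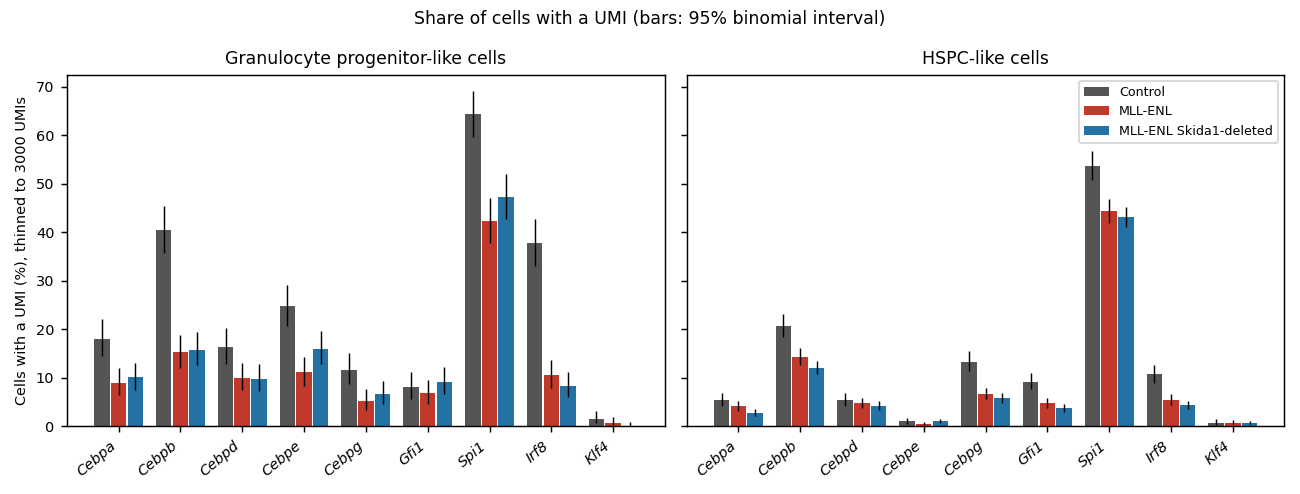
Share of cells (percent) with a UMI of each gene after thinning to 3000 UMIs per cell, in granulocyte progenitor-like and HSPC-like cells of the 3 libraries, with exact binomial 95% intervals. Control lies above the fusion libraries for 8 of the 9 genes in granulocyte progenitor-like cells, Gfi1 being the exception. Intervals overlap for Gfi1 and also for some of the 8, among them Klf4 (6 of 405, 3 of 460 and 0 of 469 cells).

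The UMIs per detecting cell were counted as well. At a fixed depth they rise with the mean level, so they are not a separate difference. Among thinned granulocyte progenitor-like cells with Irf8, the mean was 2.05, 1.25 and 1.26 UMIs and the maximum 13, 4 and 4 UMIs. Cells with 3 or more Irf8 UMIs made up 9.88%, 0.652% and 0.213% of the class. The same share was 4.44%, 0.435% and 1.07% for Cebpe and 11.1%, 3.04% and 2.35% for Spi1. The part of the differing cell mixture of the class, described above, in these values was not tested. Per granulocyte progenitor-like cell a mean of 2.23, 1.11 and 1.23 of the 9 genes was detected, and 4.94%, 30.2% and 26.2% of cells had none. Per HSPC-like cell the mean was 1.199, 0.854 and 0.775.

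Gfi1 and Irf8 were compared within cells, since GFI1 and IRF8 act on opposite branches. In Control granulocyte progenitor-like cells Gfi1 was detected in 4 of 153 cells with Irf8, or 2.61% (0.717% to 6.56%), and in 29 of 252 without, or 11.5% (7.84% to 16.1%). These intervals did not overlap. In MLL-ENL the shares were 8.33% of 48 and 6.55% of 412 cells, and in the Skida1-deleted library 5.13% of 39 and 9.53% of 430 cells, with overlapping intervals in each. Cebpe was detected in 20 of 33 Control cells with Gfi1, or 60.6% (42.1% to 77.1%), and in 21.5% (17.4% to 26.0%) of the 372 without. In MLL-ENL those shares were 19.4% and 10.5%, and in the Skida1-deleted library 18.6% and 15.7%, with overlapping intervals in each. Whether the libraries differ in these relations was not tested. The Control class may mix cells that resolution 2 sets apart, though the monocyte-dendritic progenitor-like cells there also include cells from outside it. Those monocyte-dendritic progenitor-like Control cells had Irf8, Gfi1 and Cebpe at 612, 7.80 and 4.26 CPM. The granulocyte progenitor-like Control cells of resolution 2 had them at 74.0, 47.3 and 219 CPM. The part of any such mixture in the Control shares was not tested.

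**Figure D5:**
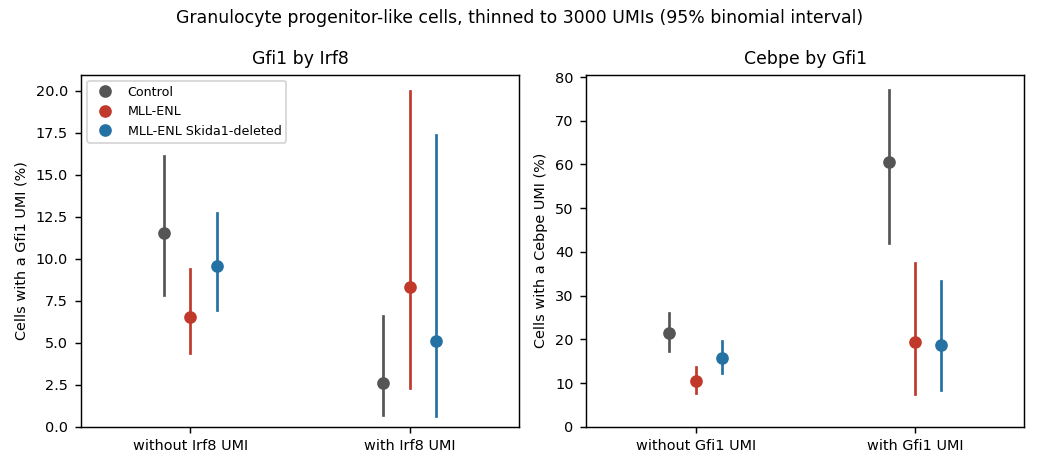
Share of thinned granulocyte progenitor-like cells (percent) with Gfi1 among cells with and without Irf8, and with Cebpe among cells with and without Gfi1, per library, with exact binomial 95% intervals. The paired intervals part in Control and overlap in the fusion libraries.

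For Cebpa with Spi1, Cebpa with Irf8, Cebpa with Cebpe and Cebpb with Cebpd, the intervals overlapped in granulocyte progenitor-like cells of each library. In the Skida1-deleted library, Cebpb was detected in 22.8% (14.7% to 32.8%) of cells with Cebpd and 11.5% (10.2% to 12.97%) of those without, among HSPC-like cells. The Cebpb shares by Cebpd overlapped in Control and MLL-ENL HSPC-like cells.

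The antibody tags, which the clustering did not use, differed with Cebpe and Irf8 inside the granulocyte progenitor-like class. CD16/32, the Fc receptors that rise on committed granulocyte-monocyte progenitors, had a median of 349 counts in Control cells with Cebpe and 111 in those without. In MLL-ENL the medians were 343 and 131, and in the Skida1-deleted library 362 and 145.5. CD34, which falls as progenitors mature, had a median of 238 counts in Control cells with Irf8 and 114.5 in those without. In MLL-ENL the CD34 medians were 128.5 and 55.5, and in the Skida1-deleted library 153 and 71. CD34 thus stood higher with Irf8 in each library, and CD16/32 with Cebpe. These are raw tag counts, not scaled to a cell's total of tags. Other pairs of gene and tag are not given here.

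The granule genes were read in the same cells. The 12 genes of the secondary granule list (Ltf, Camp, Ngp and others) include S100a8 and S100a9, which encode calprotectin, a cytosolic protein. The 12 had a mean of 19.75 UMIs per thinned Control cell with Cebpe and 0.472 per cell without. The means were 12.45 and 2.25 in MLL-ENL and 42.8 and 3.005 in the Skida1-deleted library. The part of S100a8 and S100a9 in these means was not tested. Control cluster 21, which is led by genes of this kind, held 16 cells, and the part of those cells in the Control mean was not tested. The 33 Control cells with Gfi1, 20 of them with Cebpe, had a mean of 0.485 UMIs. Cells with Irf8 had 0.229, 0.0833 and 0.0513 UMIs of those genes. The 20 monocyte and dendritic genes had a mean of 9.76, 7.125 and 4.92 UMIs per cell with Irf8 and 5.28, 4.17 and 3.73 per cell without.

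The partner and target genes were read from lists, several of whose members also name the classes, so their counts are descriptions. Beside the MLL-ENL over Control counts in granulocyte progenitor-like cells stand 8.78% of all measured genes higher and 19.4% lower. Of 12 primary granule genes measured in granulocyte progenitor-like cells, 1 was higher in MLL-ENL than in Control (Fcnb, 2.29-fold) and 3 lower (Ms4a3, Igsf6 and Prtn3, with folds of 0.308, 0.481 and 0.534). Of 8 measured genes of the secondary granule list 1 was higher (Chil3, 2.42-fold) and 4 lower. Those lower were led by Ltf (116 and 2 UMIs), Cybb (fold 0.263), which encodes the NADPH oxidase subunit, and Ngp (0.355). The list medians were -0.20 and -0.70 on the log2 scale, beside -0.17 for all measured genes.

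Of 9 myeloid cytokine receptor genes 1 was higher (Itgam, 1.74-fold) and 2 lower (Csf1r, the M-CSF receptor, fold 0.521, and Il6ra, 0.652). Of 16 monocyte and dendritic genes 2 were higher (Klf2 and H2-Ab1) and 9 lower, led by the chemokine receptor gene Ccr2 (fold 0.151), Ctss (0.241) and Cd74 (0.290). Their median was -0.77. Of 27 partner and regulator genes 5 were higher, led by Klf2 (6.76-fold, from 13 and 54 UMIs), Gata1 (3.8-fold) and Klf1 (3.38-fold). The 5 lower were led by Id3 (0.295), Jun (0.386) and Cbfb (0.555), and the median was 0.06. Erythroid markers, which include Klf1, summed to 220.7, 385 and 162 CPM in this class, and their part in the Gata1 and Klf1 values was not tested.

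When the Skida1-deleted library was set against MLL-ENL in the same class, 2 of 12 primary granule genes were higher, beside 3% of all measured genes (Fcnb 2.75-fold, Elane 1.503-fold) and 0 lower, beside 4.11%. Of 7 measured genes of the secondary granule list 4 were higher and 1 was lower (Chil3, fold 0.179). Those higher were led by the calprotectin genes S100a8 (3.77-fold) and S100a9 (2.56-fold), then Camp (2.23-fold). The list median was 0.95, beside -0.06 for all measured genes. Of 15 monocyte and dendritic genes 0 were higher and 5 lower, led by Id2 (0.318), Ctss (0.346) and Ly86 (0.457), with a median of -0.43. None of 9 receptor genes differed by 1.5-fold. Of 27 partner and regulator genes, Jun (2.35-fold) and Cebpz (1.51-fold) were higher and 4 were lower, led by Klf1 (0.167), Klf2 (0.442) and Myc (0.607).

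Among HSPC-like cells, Elane was 2.96-fold higher in MLL-ENL than in Control, the 1 of 11 primary granule genes past 1.5-fold, while Cebpa, Cebpe and Gfi1 were lower. Of all measured genes there 7.99% were higher and 15.3% lower. Of 15 monocyte and dendritic genes 2 were higher (F13a1, 4.13-fold, and Ly86, 1.57-fold) and 3 lower (Csf1r, Ctss and Ms4a6c). Of 31 partner and regulator genes Egr1 was 3.66-fold higher and 4 were lower. Those were led by Id1 (fold 0.405), Gfi1b (0.453), the Gfi1 paralogue of erythroid and megakaryocytic cells, and Fos (0.456). With Skida1 deleted, relative to MLL-ENL, Egr1 and Cebpz were 1.60-fold and 1.52-fold higher and Myc had a fold of 0.629, beside 1.75% of all measured genes higher and 1.35% lower.

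Across the 15 class-by-library values, the genes with the most similar levels were sought among 5762 genes at 30 CPM or more in at least 1 value. These correlations share libraries and depth and are descriptions. Irf8 was closest to Csf1r (Pearson r = 0.98), Mgst2 and Tifab. Cebpe was closest to Hp (0.97), Igsf6 and Mtus1, and Cebpa to Npc2 (0.98), Slc31a2 and Atp8b4. Spi1 was closest to Lbp (0.99), Casp1 and Adssl1, Gfi1 to Milr1 (0.98), Acot1 and Emb, and Cebpd to Pglyrp1 (0.98), Ms4a6c and Casp1. Cebpb was closest to Ccr2 (0.94), Fam49b and Txndc12, Cebpg to Mpdu1 (0.96), Actr10 and Tm2d3, and Klf4, the loosest, to Zbtb8os (0.88), Lactb and Ctss.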

How the data were processed

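The deposited matrices hold raw UMI counts per gene and antibody tag, made by the authors with Cell Ranger, version 6.1.2 per the file headers and 6.0.1 with mm10 per the submitters' processing notes. Cells with at least 1000 UMIs, 500 genes and at most 10% mitochondrial UMIs were kept, and 391, 384 and 582 called doublets were removed. The 3 libraries were clustered together (scanpy 1.11.5, 2000 variable genes without the 9 members, 30 components, Leiden resolution 1). Clusters were named "-like" from lineage markers by their folds within each library. A first naming rule was replaced after its cluster names, not the members' ratios, were seen, and the marker score alternative was then limited to the classes named.

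UMIs were summed per library and class and scaled to CPM. Genes past 1.5-fold were counted with no p-value, because each group is 1 library. Log2 ratios use CPM + 1. The members and lists were chosen with earlier results of these data known. Named genes are the 9 members, up to 3 per direction from each list, and the 3 most similar genes per member. The values by resolution 2 class and the UMIs per detecting cell were added after the data were seen. A simulated data set checked the scripts. Proteins were not analysed here.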

Additional observations from a re-analysis of the deposited data

How the results depend on the processing

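No paired analysis was possible because each group is 1 library. Among the alternatives, dropping the filter on low counts can change which genes are counted but never a log2 ratio. In granulocyte progenitor-like cells 6 to 8 of the 9 genes were at least 1.5-fold lower in MLL-ENL over 15 alternatives, not always the same genes (at resolution 2 Gfi1 passed, Klf4 and Spi1 did not), and Cebpe stayed higher in the Skida1-deleted library in 15 of 15 (log2 0.74 to 2.47). Its HSPC-like log2 ratio was above 0 in 14 of 14 (0.45 to 1.17), but the count of higher genes was 0 in 8 of them: with the strict cell filter, no doublet removal, expected-rate doublets, resolution 2, cell cycle and fusion genes left out of clustering, a marker score, nearest Control cells, and thinning to 3000 UMIs. Without doublet removal 2 granulocyte progenitor-like genes were higher.

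The lower Irf8 of the Skida1-deleted library passed in 9 of 15. Genes lower there numbered 0 with the strict filter, resolution 2, the marker score and thinning, and 2 with no filter on low counts. Genes lower in HSPC-like cells numbered 1 with the marker score, thinning and the summed HSPC-like and granulocyte class. With each library clustered on its own, chosen after seeing the data, 3 HSPC-like genes were lower in MLL-ENL, 2 were lower and 7 granulocyte progenitor-like genes higher with 0 lower in the Skida1-deleted library, and the Irf8 log2 ratio was 1.55.

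The Klf4 log2 ratio, MLL-ENL over Control, turned to 0.72 (strict filter), 0.54 (resolution 2), 0.57 (cycle and fusion genes out) and 0.080 (marker score). Cebpd in basophil-mast-like cells turned to 0.19 (strict filter) and Gfi1 in HSPC-like cells to 0.0032 (expected-rate doublets). Cebpe in basophil-mast-like cells, Skida1-deleted over MLL-ENL, turned to -0.029 (expected-rate doublets) and -0.35 (resolution 2). The causes were not tested. The median gene's log2 ratio, MLL-ENL over Control, was -0.20 to -0.11 by class, and scaling by it raises the ratios by as much: granulocyte progenitor-like Spi1 (log2 -0.49) and Cebpd (-0.45) then no longer pass.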
